A study of Mus musculus with 6 samples.

Results

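A set of 79 protein-coding mouse histone genes was followed in cells labelled bone marrow neutrophils, cultured with or without DKK1. They were taken by name from a table of 56884 genes. The pattern took in 86 genes named Hist1h to Hist4h, H1f, H2ac, H2bc, H3c, H4c, H2az, H2ax or H3f, and the 7 that were not protein-coding were left out. Of the 79, 68 were clustered genes, named H2ac, H2bc, H3c, H4c or H1f1 to H1f6, and 11 were variant genes. RNA sequencing covered 6 libraries of cells labelled as mature, which had been sorted as positive for CD101 and Ly6G out of bone marrow and then cultured outside the animal. DKK1 (Dickkopf-1, a secreted inhibitor of Wnt signalling) was present for 3 libraries and absent for the 3 called control here. Neither group carries a stated genetic change, and the strain, age and sex of the mice, the dose and the hours of culture were not stated in the labels. Whether each library had its own mouse or its own dish is not in the labels, and p-values therefore rest on the scatter of these 6 libraries, which may be technical.

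Histones are the proteins around which DNA is wound. The clustered genes, also called replication-dependent, lack introns as a rule, are transcribed while DNA is copied, and end their mRNA after a short stem-loop that the protein SLBP binds, in place of a poly(A) tail. Variant genes such as H3f3a, H3f3b and H2az1 are transcribed outside S phase as well, and their mRNAs are polyadenylated. Mature neutrophils do not divide, and they can release their chromatin as extracellular traps, a process in which the enzyme PADI4 converts histone arginines to citrulline.

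The stem-loop is the feature that sets these mRNAs apart, so the sites of 6 members that carry much of the signal or differ between the classes are shown. They were read from GENCODE M21 transcripts (build GRCm38), with a stem of 6 bases on each side in capitals and the 4-base loop in lower case between them.
H1f2: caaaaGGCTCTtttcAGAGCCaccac
H2bc6: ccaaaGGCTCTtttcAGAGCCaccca
H2ac18: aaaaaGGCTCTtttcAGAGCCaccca
H2ac25: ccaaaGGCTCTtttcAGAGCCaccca
H4c9: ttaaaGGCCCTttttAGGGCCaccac
H2ax: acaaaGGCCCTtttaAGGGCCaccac
H2ac25 and H2bc6 held the same 26 letters around and within the stem-loop. The search pattern was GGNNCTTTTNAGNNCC after the stop codon of the longest coding transcript model, on the transcript's strand. It was found in 43 of the 67 clustered genes that had a model. The 24 models without a match had a median of 0 annotated bases after the stop codon. A missing match therefore does not show that a gene lacks the stem-loop. H2ax was the variant gene in which it was found.

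Promoter sequence is shown for 4 members, 2 linker histone genes that moved together and the 2 genes of histone H3.3, which moved apart. Each window is the 160 bases before the RefSeq start in GRCm38.p6, read 5′ to 3′ on the gene's own strand. Capitals mark matches on either strand to 5 motifs. The first is CCAAT, the binding site of a general promoter factor. The next are TATAAA together with its variant form TATATA, which mark where transcription starts. The H1 box, a motif known from H1 promoters, was searched as AAACACA in all windows. The octamer, known from H2B promoters, was searched as ATTTGCAT. Adjoining TATAAA and TATATA matches overlap.
H1f2, chr13:23738647-23738806, plus strand: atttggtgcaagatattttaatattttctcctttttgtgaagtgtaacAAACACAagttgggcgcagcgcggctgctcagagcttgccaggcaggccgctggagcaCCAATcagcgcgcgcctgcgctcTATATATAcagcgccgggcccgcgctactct
H1f4, chr13:23622559-23622718, minus strand: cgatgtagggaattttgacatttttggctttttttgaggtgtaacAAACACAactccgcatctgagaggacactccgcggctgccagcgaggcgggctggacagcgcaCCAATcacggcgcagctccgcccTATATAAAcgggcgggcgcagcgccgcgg
H3f3a, chr1:180813606-180813765, minus strand: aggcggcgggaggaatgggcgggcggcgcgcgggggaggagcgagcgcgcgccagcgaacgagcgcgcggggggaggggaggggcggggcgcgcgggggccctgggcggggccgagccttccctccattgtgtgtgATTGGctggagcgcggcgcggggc
H3f3b, chr11:116024505-116024664, minus strand: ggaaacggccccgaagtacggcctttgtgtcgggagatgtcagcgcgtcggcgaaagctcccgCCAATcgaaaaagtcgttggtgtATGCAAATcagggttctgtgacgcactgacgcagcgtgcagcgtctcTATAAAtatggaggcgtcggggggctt
Both linker histone windows held an H1 box, a CCAAT match and a TATA-type match in the same order. The H3f3b window held a CCAAT, an octamer and a TATAAA match, and the H3f3a window held 1 CCAAT match, on the opposite strand, and no other. RefSeq promoters were matched for 72 of the 79 members. In the 300 bases from 250 before to 50 after the start, CCAAT was found in 85.5% of the 62 clustered promoters, in 70.0% of the 10 variant promoters and in 37.9% of the 27025 promoters of all genes. TATAAA was found in 56.5% of clustered promoters, in 2 of the 10 variant ones and in 14.2% of all, and the octamer in 13 of the 62 clustered promoters and 1.75% of all. These matches are a description of letters and say nothing about binding.

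The depth recovered from the table was 8688911 to 9851961 reads per control library and 5188116 to 8749228 per DKK1 library, the lowest being DKK1 library 2. That library differed from the other two of its group by a chi-square per degree of freedom of 12.5 and 13.6, against 2.99 between the other DKK1 pair and 2.19 to 2.26 among controls. The labels call all 6 libraries neutrophils, and the marker genes in the DKK1 libraries went against that label. Ly6g stood at 1265 to 1410 normalized counts in control and 4.47 to 6.87 in DKK1, and Cd101 at 4902 to 5249 and 1.37 to 5.96. Of 12 neutrophil markers, 11 were lower with DKK1 and 1 did not pass, and their summed normalized count ran from 691378 to 716974 in control and from 3415 to 3858 in DKK1. Summed markers of macrophages ran from 7878 to 8048 and from 17538 to 18599, with 4 of 12 higher and 6 lower (4 and 3 with equal totals). Those of B cells ran from 1498 to 1611 and from 42.6 to 116, with 7 of 8 lower (4 in edgeR, in DESeq2 and with equal totals), Vpreb3 being at 0 in DKK1. Those of red cells ran from 1596 to 1740 and from 300.5 to 1496, with 5 of the 7 tested lower (4 in DESeq2, 2 with equal totals) and Epor at 0 in DKK1, and those of T and NK cells from 54.2 to 89.0 and from 1.37 to 5.96. These counts stand beside 36.1% of all genes tested called lower and 35.1% called higher. Vpreb3 and Epor met the filter through the control libraries alone, so their calls are no separate support. The part of these marker levels in the histone results was not tested. All 3 DKK1 libraries share the loss of neutrophil markers, so no comparison remains without them.

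Most clustered histone genes that could be tested were lower in the DKK1 libraries, and the sum over the class was 10.4-fold lower. Variant genes moved in both directions, and their sums of normalized counts overlapped between groups, though not as a share of all counts. Of the 68 clustered genes, 30 reached a normalized count of 1 in at least 3 libraries and were tested, 22 of these were lower with DKK1 and 1 higher, while 7 did not pass (limma, Benjamini-Hochberg adjusted p under 0.05 over 16265 genes). Over all genes tested, 36.1% were called lower, 35.1% higher and 71.2% either. The median log2 change of the tested clustered genes was -2.49, beside -0.03 for all genes tested. It was -2.40 when genes at 0 in a group were set at a floor of 3 reads over that group. The DKK1 values lay below every control value in 23 of the 30, where 37.4% of all genes tested did so. Genes that were present in control only could enter the test and had to differ, so these counts describe the 30 tested and not the class. Fewer cells of a type and less RNA per cell cannot be told apart in bulk RNA.

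Summed over all 68 genes, whether tested or not, the clustered normalized count was 6789, 7012 and 7095 in control and 647, 703 and 659 in DKK1. The sums did not overlap, and their means were 6965 ± 158 and 670 ± 29.7 (SD, n = 3). The variant sum was 18158, 18668 and 18396 in control and 16767, 20343 and 17650 in DKK1, and these ranges overlapped. As a share of all histone counts, not corrected for transcript length, the clustered genes made up 27.5% ± 0.334 in control and 3.55% ± 0.191 in DKK1 (SD, n = 3). The summed normalized counts of all genes were 9706280 to 9775230 in control and 6521100 to 7126730 in DKK1. Scaling libraries to equal totals moved the median log2 change of all genes to 0.44, with 7098 higher and 4742 lower, and 20 clustered genes were then lower and 2 higher. As a share of all counts in a library, the clustered sum was 7.20-fold lower in DKK1.

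**Figure D1:**
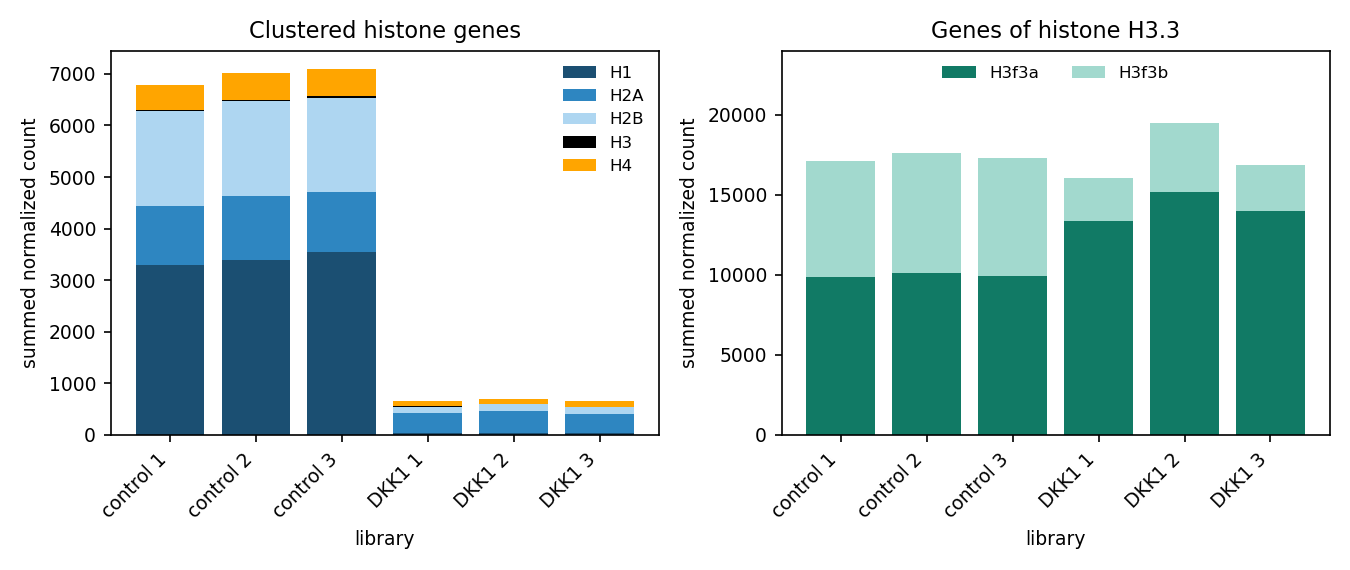
Summed normalized counts (y axis) in each of the 6 libraries (x axis), stacked by family for the clustered genes on the left and by gene for histone H3.3 on the right. Clustered sums were 6789 to 7095 in control and 647 to 703 in DKK1, while H3f3a plus H3f3b were 17081 to 17602 and 16026 to 19470.

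Linker histones, which bind the DNA between nucleosomes, had the largest ratio of the 5 families. Clustered H1 genes summed to 3408 ± 125 normalized counts in control and 37.5 ± 5.58 in DKK1 (SD, n = 3), and 3 of the 3 tested were lower. H1f2 stood at 3171, 3266 and 3391 in control and at 40.2, 30.2 and 24.5 in DKK1. No DKK1 library came near a control library. The means, 3276 ± 110 and 31.7 ± 7.97 (SD, n = 3), differed 104-fold, a log2 change of -6.68 ± 0.16 (SE, limma adjusted p = 1.02e-09). This single gene held 47.0% of all clustered counts in control and 4.75% in DKK1. H1f4 stood at 96.6, 122 and 125 in control and at 0, 0 and 3.27 in DKK1, where its 4 reads all came from library 3. The groups were far apart, with a log2 change of -6.14 ± 0.58 (SE, limma adjusted p = 9.91e-06). Its model lies over that of H2bc6 on the same strand and shares 21.7% of its 100-base stretches with it, so some reads may belong to either. H1f3 fell 3.39-fold, from 15.4 ± 4.91 to 4.54 ± 1.81 (SD, n = 3). H1f3 did not pass with equal totals (limma adjusted p = 0.0515) or without control library 3 (limma adjusted p = 0.0567). H1f1 had no read in the 6 libraries.

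H2B genes, whose protein pairs with H2A, followed with a summed 1837 ± 11.3 in control and 129 ± 10.2 in DKK1 (SD, n = 3). Of 9 tested, 7 were lower, 1 higher and 1 did not pass. H2bc4 stood at 985, 1007 and 983 in control and at 81.2, 102 and 93.1 in DKK1. Its groups were tight and 10.8-fold apart, with a log2 change of -3.42 ± 0.11 (SE, limma adjusted p = 4.88e-09). H2bc6 stood at 345, 279 and 331 in control and at 2.98, 6.87 and 8.98 in DKK1, a 50.7-fold difference with no overlap (limma adjusted p = 4.56e-07). H2bc24 stood at 312, 324 and 438 in control and at 9.69, 6.87 and 4.90 in DKK1. Its control library 3 was the highest, and it is that library in which the near-identical H2bc23 read 0, against 149 and 184 in control libraries 1 and 2. Reads of that pair therefore appear under 1 gene or the other, and H2bc23 alone did not pass (limma adjusted p = 0.0636). The sum of the pair was 461, 508 and 438 in control and 9.69, 6.87 and 7.35 in DKK1, a 58.9-fold difference that does not depend on the assignment.

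H2bc8 stood at 23.1, 10.1 and 36.5 in control and at 0, 0 and 0.817 in DKK1. All 3 control values were higher, with a wide spread, and the DKK1 group held 1 read against 67. The pooled ratio of control to DKK1 was 73.0 (95% counting interval 12.7 to 2928). The log2 change of H2bc8 was -4.14 ± 0.57 (SE, limma adjusted p = 0.000152). H2bc8 met the filter through the control libraries alone, so this p-value is no separate support. H2bc21, in the cluster on chromosome 3, was the 1 clustered gene called higher. It stood at 6.59, 12.3 and 5.91 in control and at 23.1, 16.5 and 21.2 in DKK1, without overlap, and its mean rose 2.45-fold (limma adjusted p = 0.0168). It rested on 23 and 69 reads, and its adjusted p rose to 0.0519 without control library 1, 0.0592 without control library 3 and 0.0552 without DKK1 library 1 (limma). H2bc3, H2bc9 and H2bc11 also fell, from control means of 5.30 to 11.9.

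**Figure D2:**
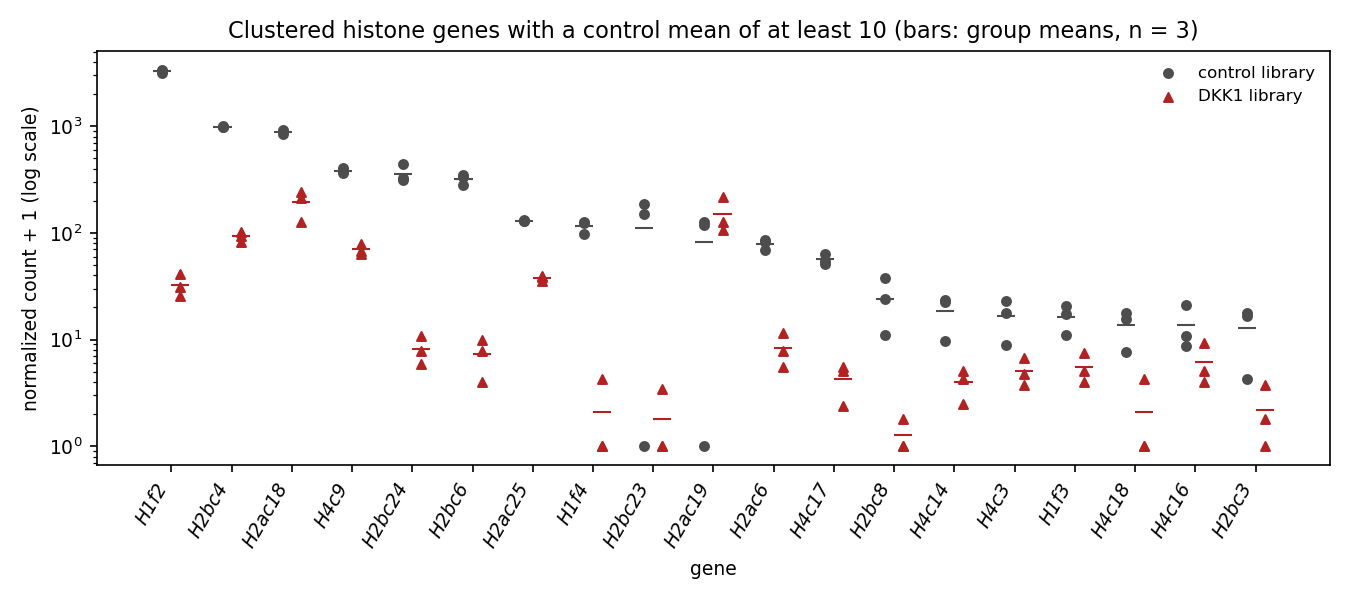
Normalized count plus 1 on a log axis for the 19 clustered genes with a control mean of at least 10, with each library as a point and each group mean as a bar. H1f2 lies between 3171 and 3391 in control and between 24.5 and 40.2 in DKK1, while H2bc23 and H2ac19 each show 1 control library at 0.

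H2A genes, whose protein faces H2B in the nucleosome, had a smaller ratio between groups. Their sum was 1188 ± 41.0 in control and 392 ± 30.7 in DKK1 (SD, n = 3), 3.03-fold lower, and 5 of 6 tested genes were lower. H2ac18 stood at 916, 896 and 838 in control and at 124, 243 and 212 in DKK1. The groups did not overlap, with a log2 change of -2.24 ± 0.21 (SE, limma adjusted p = 1.13e-05). H2ac19, of which all 100-base stretches are also in H2ac18, stood at 0, 118 and 125 in control and at 215, 126 and 105 in DKK1. It overlapped between groups and did not pass (limma adjusted p = 0.30). Neither gene's own value can be separated from its copy. Together they stood at 916, 1014 and 964 in control and at 340, 370 and 317 in DKK1, 2.82-fold lower. The unnamed model Gm20634, which lies over H2ac18 on the same strand, went from a mean of 147 to 31.1.

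H2ac25, a gene on chromosome 11 apart from the large clusters, stood at 132, 127 and 127 in control and at 34.3, 38.5 and 37.6 in DKK1. Both groups were tight, and the mean fell 3.50-fold with a log2 change of -1.78 ± 0.16 (SE, limma adjusted p = 8.29e-06). It shares its strand and part of its model with Trim17, which went from 20.4 ± 6.23 to 2.92 ± 2.76 (SD, n = 3). H2ac6 fell 10.6-fold, from 77.7 ± 8.63 to 7.32 ± 3.10 (SD, n = 3). H2ac24 went from 24 reads to 0, at least 8.63-fold lower against the floor of 3 reads over the group. H2ac7 rested on 12 and 2 reads. It did not pass in DESeq2 (adjusted p = 0.103), nor without control library 1 or 3 or DKK1 library 1 or 2 (limma adjusted p = 0.0542 to 0.0846).

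H4 genes, whose protein pairs with H3 at the core of the nucleosome, summed to 508 ± 24.5 in control and 102 ± 15.2 in DKK1 (SD, n = 3). Of 8 tested, 5 were lower and 3 did not pass. H4c9 stood at 367, 378 and 401 in control and at 61.9, 67.3 and 78.4 in DKK1. It was 5.52-fold lower with no overlap (log2 change -2.45 ± 0.13 SE, limma adjusted p = 1.71e-07). H4c17 stood at 53.8, 50.3 and 62.1 in control and at 4.47, 1.37 and 4.08 in DKK1, 16.7-fold lower (limma adjusted p = 2.62e-05). H4c17 shares 88.1% of its stretches with H4c18, and the pair together went from 68.0 ± 9.62 to 4.40 ± 2.99 (SD, n = 3). H4c14 and H4c3 fell 5.95-fold and 3.82-fold, while H4c8 stood at 9.15 ± 6.60 and 12.5 ± 5.56 (SD, n = 3), H4c16 at 12.5 ± 6.64 and 5.10 ± 2.77 and H4c4 at 2.51 ± 1.75 and 2.12 ± 2.06, and none of the 3 passed. H4c3 did not pass with equal totals (limma adjusted p = 0.0579) or without control library 1 (limma adjusted p = 0.0703) or 2 (limma adjusted p = 0.0517).

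Clustered H3 genes were the scarcest, with a sum of 24.1 ± 0.989 in control and 10.2 ± 5.37 in DKK1 (SD, n = 3) and 2 of 4 tested genes lower. H3c15 went from 24 reads to 0 and H3c6 from 14 reads to 0. H3c14, the neighbour and close copy of H3c15, had no control read and 18 DKK1 reads, all in library 1, too few libraries to be tested. H3c13, H3c14 and H3c15 summed to 6.59, 10.1 and 12.8 in control and to 13.4, 0 and 0 in DKK1. These sums overlapped and did not pass (limma adjusted p = 0.0806), so the call for H3c15 does not hold for its group of copies. H3c6 and H3c7, which share shorter stretches, summed to 5.66 ± 0.221 and 3.23 ± 1.51 (SD, n = 3). H3c4 and H3c7 did not pass on their own, with adjusted p = 0.0848 and 0.0545 (limma).

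**Figure D3:**
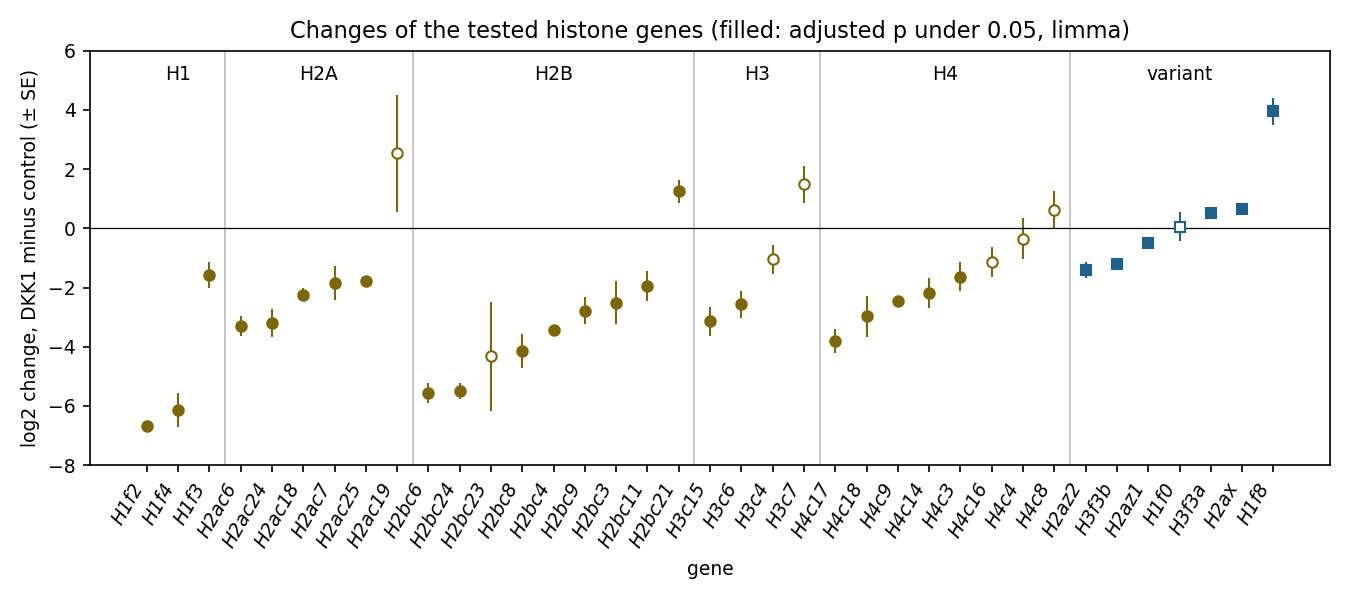
Log2 change, DKK1 minus control, with SE (y axis) for each of the 37 tested histone genes (x axis), grouped by family with variant genes at the right. Circles are clustered and squares variant genes, filled where the limma adjusted p was under 0.05. Of the 30 clustered genes 23 are filled, 22 below 0, and of the 7 variant genes 6 are filled, 3 on each side of 0.

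To see how far copies bear on the class, clustered genes that share over 50% of their 100-base stretches with their closest copy were summed into 1 unit, a step chosen after the data were seen. This gave 52 units, 44 of them single genes, and 27 units were tested. Lower units numbered 19 and higher units 1, and 7 did not pass, with a median log2 change of -2.19. H2ac7 and H3c15 were the called genes whose units did not pass.

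Of the 38 clustered genes that were not tested, 19 had no read in the 6 libraries and the other 19 had 1 to 18 reads in all. The untested genes that had a model, 37 in number, held 0.197% of the clustered counts in control and 1.64% in DKK1. Per kilobase of transcript model, the highest clustered levels in control were 2100 for H1f2, 1508 for H2ac18, 858 for H2bc4 and 525 for H4c9 normalized counts. In DKK1 the order by the same measure was H2ac18 at 330, H2ac19 at 282, H4c9 at 95.2, H2bc4 at 79.6, H4c8 at 26.6 and H1f2 at 20.3. H1f2, which led the control libraries, thus ranked below H2ac18 and its copy, H4c9, H2bc4 and H4c8 in DKK1.

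By position, 31 of the clustered genes lie between 23531050 and 23934851 on chromosome 13, where 16 were tested and 12 were lower. The sum there went from 4885 to 171 normalized counts. A second group of 18 genes on chromosome 13, between 21715763 and 21837530, had 4 of 5 tested genes lower and went from 549 to 13.1. Among those 4, H4c17 and H4c18 are close copies, and H2ac24 met the filter through the control libraries alone. Another group on the same chromosome, with 5 genes between 22035164 and 22043676, had 2 of 2 lower and went from 389 to 73.6. The 10 genes on chromosome 3, between 96219865 and 96270132, had 3 of 5 lower and 1 higher, and went from 1001 to 370. On chromosome 11, H2ac25 was the 1 gene tested of 3, and H4c16 lay alone on chromosome 6. Each chromosome 13 group held genes called lower, as did those on chromosomes 3 and 11, where 36.1% of all genes tested were called lower. In the group of 31 genes, H4c8 and H3c7 had higher means in DKK1 and did not pass. Positions are from GENCODE M21 in GRCm38.

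The transcript models of tested and untested clustered genes had different ends. The 30 tested genes had a median of 622.5 annotated bases after the stop codon, and the 37 untested genes with a model had 74.0. The stem-loop letters were found in 26 of the 30 and in 17 of the 37. A poly(A) signal (AATAAA or ATTAAA) after the stop codon was found in 15 of the 30 and in 7 of the 37. Models that end at or near the stop codon leave little to search, so both comparisons depend on the annotated length. Members with such a signal held 82.1% of clustered counts in control and 45.5% in DKK1. These shares lean on single genes. H2ac18 plus H2ac19, without a signal, had means of 965 in control and 342 in DKK1, and H1f2, with one, 3276 and 31.7. H1f2, for one, has its stem-loop 25 bases after the stop codon and a further 840 annotated bases after it, ending with a poly(A) signal. By contrast, H2ac18 has a stem-loop 59 bases after the stop codon, 35 bases after that and no signal. The median log2 change was -2.45 in the 15 tested genes with a signal and -2.52 in the 15 without. A sum per gene does not show where in a gene its reads lie, so the form of the mRNA end was not measured, and how the libraries selected RNA was not stated in the labels.

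**Figure D4:**
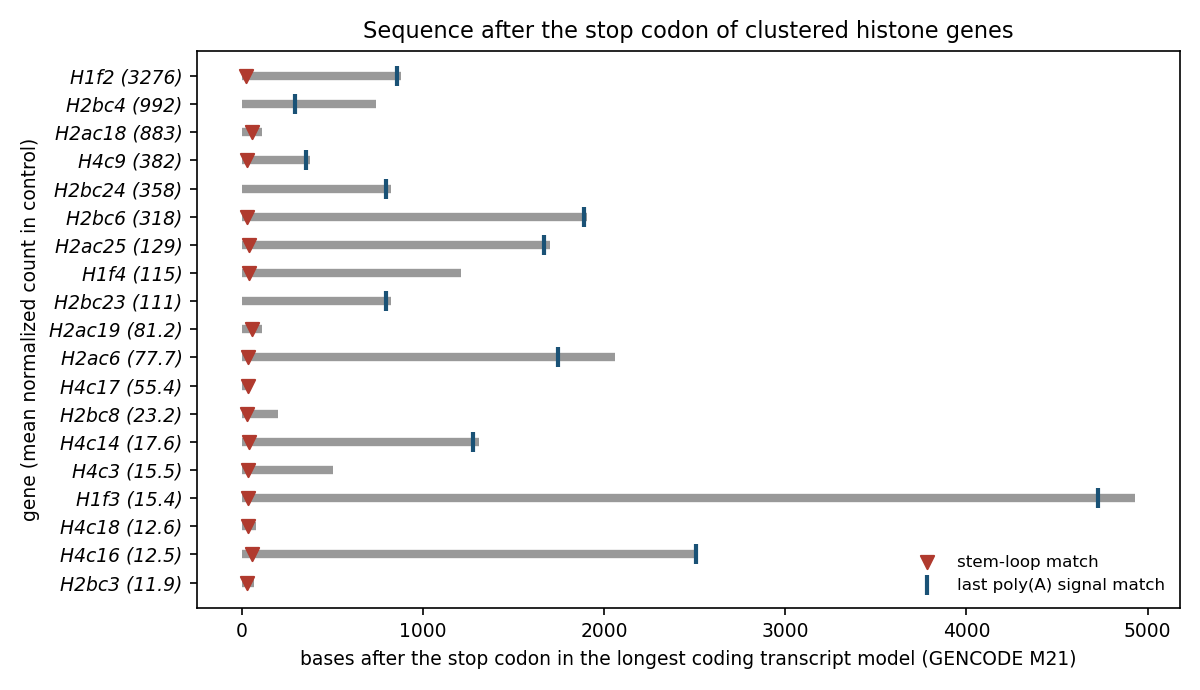
Annotated bases after the stop codon (x axis, grey bar) for the 19 clustered genes with a control mean of at least 10 (y axis, the mean in brackets), with the stem-loop match as a triangle and the last poly(A) signal match as a tick. A stem-loop was found in 16 of the 19 and a poly(A) signal in 11, and the bar of H1f2 runs 880 bases.

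Variant genes made up most histone counts and moved in both directions. Of 11, 7 were tested, 3 were higher, 3 lower and 1 did not pass, and the median log2 change was 0.05. For 7 genes these counts are near the shares of all genes, 35.1% higher and 36.1% lower, and do not set the variant genes apart. Among the higher was H1f8, which entered the test through the DKK1 libraries alone. H3f3a and H3f3b encode the same protein, histone H3.3, which replaces H3 outside DNA replication. H3f3a stood at 9848, 10139 and 9954 in control and at 13347, 15154 and 13975 in DKK1. All 3 DKK1 values were above the controls, and the mean rose 1.42-fold, from 9980 ± 147 to 14159 ± 917 (SD, n = 3; log2 change 0.50 ± 0.05 SE, limma adjusted p = 2.44e-05). H3f3b stood at 7232, 7463 and 7373 in control and at 2679, 4316 and 2876 in DKK1. It fell 2.24-fold without overlap, DKK1 library 2 being the closest to control (log2 change -1.19 ± 0.15 SE, limma adjusted p = 9.37e-05). With equal totals both kept their direction, with log2 changes of 1.03 and -0.66.

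The sum of H3f3a and H3f3b was 17337 ± 261 in control and 17449 ± 1798 in DKK1 (SD, n = 3), and its ranges overlapped. H3f3a supplied 57.7%, 57.6% and 57.4% of the summed H3f3a and H3f3b in control and 83.3%, 77.8% and 82.9% in DKK1. The H3f3a share was almost constant within control and higher in each DKK1 library. The ratio of the genes went from 1.36 ± 0.00606 to 4.45 ± 0.816 (SD, n = 3). A ratio within a library does not depend on how libraries are scaled. H3f3a is overlapped on the opposite strand by H3f3aos, which stood at 30.7 ± 6.57 and 43.3 ± 3.91 (SD, n = 3), and whether counting used strand was not stated.

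H2A.Z, a variant placed at promoters, is encoded by H2az1 and H2az2. H2az1 stood at 922, 891 and 930 in control and at 582, 716 and 656 in DKK1. It was 1.40-fold lower without overlap (log2 change -0.49 ± 0.09 SE, limma adjusted p = 0.000733), but with equal totals the change was 0.04 (limma adjusted p = 0.679), so its direction depends on the scaling. H2az2 stood at 82.4, 98.3 and 75.9 in control and at 39.5, 22.0 and 35.9 in DKK1. It fell 2.63-fold (limma adjusted p = 0.000993), and with equal totals by 0.88 on the log2 scale (limma adjusted p = 0.0189).

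H2ax encodes the variant that is phosphorylated beside DNA breaks, and it is the variant gene whose mRNA carries a stem-loop, shown above, with 822 annotated bases after it. It stood at 57.1, 65.9 and 46.3 in control and at 91.7, 89.3 and 84.9 in DKK1. The groups did not overlap and the mean rose 1.57-fold (log2 change 0.66 ± 0.19 SE, limma adjusted p = 0.0111), opposite to the clustered H2A genes. H1f0, the linker histone known from cells that no longer divide, stood at 14.3, 10.1 and 14.8 in control and at 8.94, 28.8 and 8.98 in DKK1. Only DKK1 library 2 was above control, and H1f0 did not pass (limma adjusted p = 0.931). H1f8, the linker histone known from oocytes, had no read in control and stood at 18.6, 12.4 and 13.1 in DKK1, from 50 reads. It was at least 13.8-fold higher against the floor of 3 reads over the control group (limma adjusted p = 3.50e-05). H1f8 met the filter through the DKK1 libraries alone and so had to differ, and the p-value is no separate support. H1f8 lies 4575 bases from Plxnd1 on the opposite strand, and Plxnd1 went from 45.6 ± 5.48 to 9302 ± 943 (SD, n = 3). The part of reads from that neighbour in the H1f8 value was not tested. The other variant genes, H1f7, H1f9, H1f10 and H3f4, had 0 to 3 reads in all.

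**Figure D5:**
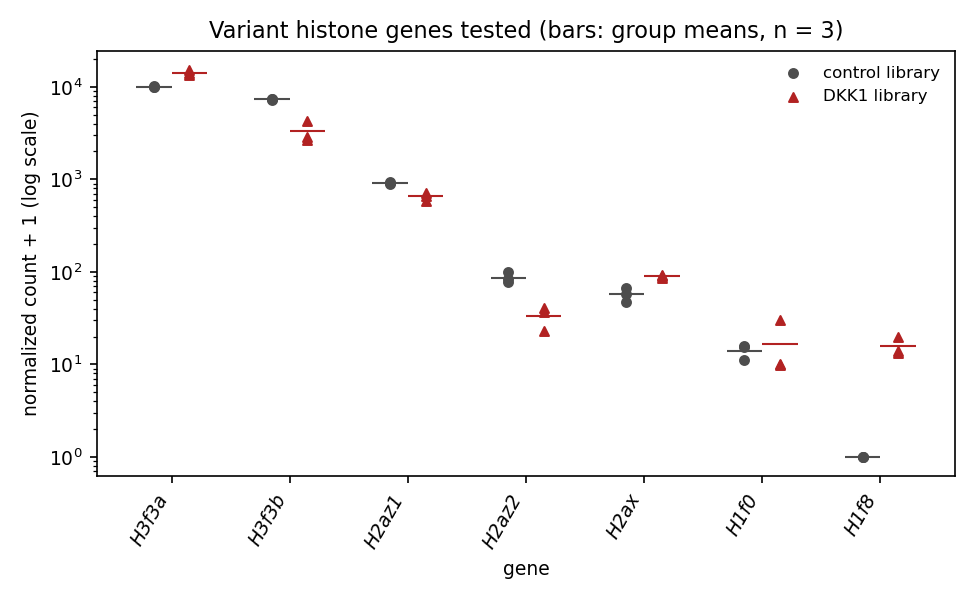
Normalized count plus 1 on a log axis for the 7 tested variant genes, with each library as a point and each group mean as a bar. H3f3a rises from a mean of 9980 to 14159 while H3f3b falls from 7356 to 3290, and H1f8 is at 0 in all 3 control libraries.

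Of 21 histone genes listed from outside the naming pattern, 9 were found by name and 4 could be tested. Of 4 tested, 3 were lower, with Macroh2a1 (macroH2A) going from 613 ± 38.0 to 106 ± 10.4, Cenpa (the centromeric H3) from 281.8 ± 22.99 to 19.2 ± 8.24 and H2aj from 408 ± 34.3 to 143 ± 39.8 (SD, n = 3). Macroh2a2 did not pass, and its log2 change ran from -0.004 to 1.61 over the alternative settings. Over all genes tested, 36.1% were called lower.

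Genes that drive, make or end clustered histone mRNA moved in both directions. Of 23 tested, 13 were higher, 5 lower and 5 did not pass, with a median log2 change of 0.57. Over all genes tested, 35.1% were called higher and 36.1% lower. With equal totals 16 of the 23 were higher and 4 lower. Slbp, which binds the stem-loop, stood at 421, 429 and 445 in control and at 616, 651 and 654 in DKK1, 1.48-fold higher (limma adjusted p = 0.000102). Npat, the coactivator of clustered histone transcription, stood at 53.8, 44.7 and 51.2 in control and at 250, 262 and 300.5 in DKK1, 5.43-fold higher (limma adjusted p = 4.53e-07). Eri1, an exonuclease that trims the stem-loop end, rose 4.43-fold, and the cleavage factors Cpsf1 and Cstf2 rose 3.51-fold and 7.74-fold. The 5 that were lower, named after their values were seen, were the cleavage factors Cpsf3 (1.75-fold) and Cstf2t, the kinase gene Cdk2 (3.02-fold, limma adjusted p = 8.0e-05) and its cyclin partners Ccne1, which rested on few reads, and Ccne2 (2.72-fold). Cstf2t did not pass with equal totals.

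Histone chaperones carry histones to and from DNA. Of 28 tested, 17 were higher, 4 lower and 7 did not pass, where 35.1% of all genes were higher and 36.1% lower. The median was 0.90, and with equal totals 22 were higher and 2 lower. Set, Supt16 and Npm1 rose 4.39-fold, 3.23-fold and 5.42-fold. Hjurp, the chaperone of CENPA, fell 11.6-fold from 2075 ± 38.1 to 179 ± 15.1 (SD, n = 3), as its cargo gene Cenpa also fell. Of 21 genes for H2A.Z exchange, 11 were higher, 5 lower and 5 did not pass, beside the same shares of all genes. The median was 0.44, and with equal totals 15 were higher and 3 lower. Ino80 and Srcap, the motor subunits of 2 remodellers, rose 5.45-fold and 2.64-fold, and Trrap and Znhit1 fell 3.02-fold and 3.55-fold.

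Genes of DNA replication, with which clustered histone transcription is coupled in dividing cells, moved in both directions. Of 43 tested, 17 were higher, 10 lower and 16 did not pass, with a median of 0.45. The share called higher was near the 35.1% of all genes, and the share called lower was below the 36.1% of all genes. With equal totals 22 were higher and 8 lower. Pcna, the replication clamp, stood at 160, 158 and 153 in control and at 1528, 1639 and 1635 in DKK1, 10.2-fold higher. Cdt1 and Rfc5 rose 17.4-fold and 5.52-fold, and E2f2 fell 89.3-fold. Of 30 mitosis genes, 5 were higher, 7 lower and 18 did not pass, with a median of -0.06, where 35.1% of all genes were higher and 36.1% lower. With equal totals the balance turned, with 9 higher and 5 lower. Mki67 rose 3.04-fold, while Hmgb2 fell 64.4-fold and Kif23 149.7-fold. Scaling to equal totals raised these medians, to 1.42 for chaperones, 0.95 for H2A.Z exchange, 0.90 for replication and 0.41 for mitosis, as it raised that of all genes to 0.44.

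The enzyme that citrullinates histones in neutrophils, Padi4, stood at 5581, 5416 and 5534 in control and at 47.7, 24.7 and 45.7 in DKK1. No value overlapped and the mean fell 140-fold (log2 change -7.15 ± 0.21 SE, limma adjusted p = 4.11e-09), beside the fall of the neutrophil markers given above. Padi2 rose 2.34-fold from 8.45 to 19.8, Padi6 rested on few reads and was lower, and Padi3 did not pass. Padi6 passed in neither edgeR nor DESeq2, and Padi2 did not pass in DESeq2.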

How the data were processed

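RNA of 3 DKK1 and 3 control libraries was measured by sequencing. The authors deposited normalized counts per gene, a signal that is never negative, per the file headers. The build was mm10, per the submitters' processing notes. No label or header names the aligner, counter, annotation or the way values were normalized (not given in the sources used here). A further 3 columns of values match no sample and were not used. Every value was a whole multiple of 1 read's worth (100% of values within 0.001 reads), so reads were recovered. They carry no molecular identifiers, so intervals and floors cover counting error only. The floor, 3 reads over a group, equals a mean of 1.07 (control) or 0.979 (DKK1).

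Groups came from sample titles. Genes with at least 1 in at least 3 libraries (16265) were tested with limma 3.58.1 (R 4.3.3, trend and robust) on log2(normalized count + 1), two-sided, Benjamini-Hochberg adjusted over all of them, at 0.05. This scale understates changes of low genes. Of all genes 5709 were higher and 5873 lower. Alternatives were edgeR 4.0.16 and DESeq2 1.42.0 on recovered reads, other pseudocounts, filters and scalings, a replicate block and leaving out each library. Only the limma step was tested on simulated counts, in which far fewer genes changed than were called here.

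The histone genes and the lists of related and marker genes were chosen with earlier results of these data known. Any tested histone gene could be named. Values per library were due for tested variant genes, for the 8 clustered genes of highest mean and for the 6 called ones of largest change. Up to 4 genes of smallest adjusted p came from each list, with Slbp, Padi4, Npat, Ly6g and Cd101 always included. Transcript models were from GENCODE M21, in which all 79 were found by identifier without version.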

Additional observations from a re-analysis of the deposited data

How the results depend on the processing

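Of the 37 tested histone genes, 28 kept their side of the threshold under each of 17 alternatives that gave them a value. Of those 28, 25 also kept their direction. The other 3, never called, changed sign: H1f0 (0.05) was -0.005 with median-of-ratios scaling, -0.11 without control library 2 and -0.48 without DKK1 library 2, H4c4 (-0.35) was 0.03 without control library 2 and 0.33 without DKK1 library 3, and H4c8 (0.62) was -0.06 without control library 2. Calls changed for 9 genes, H1f3, H2ac7, H2az1, H2bc21, H2bc23, H3c4, H3c7, H4c3 and H4c16. H2az1 turned from -0.49 to 0.036 with equal totals and was -0.11 with quantile normalization, and neither value passed. The cause was not tested. H2bc23 was lower in edgeR (adjusted p = 0.000708) and DESeq2 (adjusted p = 0.0338).

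The count of clustered genes called lower stayed between 20 and 23, with 3 kinds of exception. It was 12 of 15 tested when a value of at least 10 in 3 libraries was asked for, and 15 of 24, 16 of 24 and 16 of 25 tested without control library 1, 2 or 3, where fewer genes passed the filter. With near-identical copies summed, chosen after the data were seen, it was 19 of 27 units. Without DKK1 library 2, the library that stood apart, it was 22, with 1 higher. The count called higher was 1, but 2 with equal totals, with quantile normalization and with a replicate block, where H3c7 was added, and leaving out 1 library gave 0 to 1, the 0 without control library 1. Without control library 3 or DKK1 library 1, H3c7 was called higher in place of H2bc21. Without any 1 DKK1 library, 2 variant genes were higher in place of 3, since H1f8 no longer met the filter.

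The median log2 change of clustered genes was -3.45 with a pseudocount of 0.1, -0.89 with 10, -1.14 with no filter, -3.30 with at least 10 in 3 libraries, -2.07 with equal totals, -3.12 in edgeR and -3.29 in DESeq2, and -2.51 to -2.04 on leaving out 1 library. That of variant genes was 0.54 with equal totals, -0.005 with median-of-ratios scaling, and -0.52 to 0.14 on leaving out 1 library, the lowest without DKK1 library 2. Deviations from the group means of same-numbered libraries correlated at -0.005, 0.007 and 0.017, and not every library correlated best with its own number. With 3 libraries per group, this cannot tell whether same-numbered libraries shared a mouse or preparation, and the labels do not say. With a replicate block 5630 genes were higher and 5817 lower. Genes under 3 reads over a group could not be separated from 0 at this depth.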
